A study of Homo sapiens with 12 samples.

Results

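The enzymes, membrane proteins and proton pump of the lysosome were represented by 55 genes, of 18417 genes with at least 1 probe set annotated to them alone. They comprised 13 proteases, 18 glycosidases, sulfatases and lipid hydrolases, 3 lipid-binding cofactors, 7 membrane proteins, 5 subunits of the membrane sector (V0) and 8 of the catalytic sector (V1) of the vacuolar proton pump (V-ATPase), and TFEB, a transcription factor of lysosomal genes. The rule picks genes by name and uses no measured value, although the list was written with earlier results of these data known, and all 55 were measured. Where a gene had several probe sets, the brightest one, by its average on the 12 arrays, was used, which applied to IDS (2 probe sets) and NEU1 (3 probe sets).

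Calu-6 is a human lung carcinoma line. RNA was profiled on Affymetrix Human Gene 1.0 ST arrays from 4 groups of 3 biological replicates: cells given LAPTM4B-specific siRNA and medium with 0% FBS (fetal bovine serum), cells given scrambled control siRNA and 0% FBS, cells given LAPTM4B-specific siRNA and 10% FBS, and cells given control siRNA and 10% FBS. They are called siLAPTM4B and siControl cells, without serum or with 10% FBS. Medium was changed 1 day after transfection with Lipofectamine RNAiMAX and RNA was taken 48 h later, 72 h after transfection, so serum withdrawal lasted 48 h in cells that had all been transfected. All levels are RMA signals on the log2 scale. Array medians lay between 7.71 and 7.76, and the lowest correlation between replicates of a group was 0.998. The number of arrays limits the precision, and 1 cell line and 1 siRNA preparation per target were tested.

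Lysosomal hydrolases are made in the endoplasmic reticulum, tagged with mannose 6-phosphate and carried to an organelle that the V-ATPase keeps acidic, where they break down proteins, glycans and lipids. Heavily glycosylated membrane proteins such as LAMP1 line the organelle, and NPC1 and NPC2 hand cholesterol out of it. When mTORC1 on the lysosomal surface is inactive, as in starved cells, TFEB and its relatives enter the nucleus and bind a palindromic element in the promoters of many lysosomal genes. LAPTM4B, the siRNA target, encodes a transmembrane protein of late endosomes and lysosomes.

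The targeted transcript was lower in siLAPTM4B cells in both media. LAPTM4B had levels of 10.45, 10.50 and 10.54 in siLAPTM4B cells without serum, against 11.94, 11.87 and 11.93 in siControl cells without serum (log2 fold change -1.42 ± 0.046 SE, 0.373-fold, adjusted p = 8.6e-06, limma). With 10% FBS it had 10.01, 10.04 and 9.99 in siLAPTM4B cells, against 11.76, 11.75 and 11.80 in siControl cells (-1.75 ± 0.044, 0.297-fold, adjusted p = 6.4e-07). The knockdown was thus smaller without serum, by 0.33 ± 0.056 on the log2 scale (interaction term, adjusted p = 0.035). Between the media, LAPTM4B was higher without serum in siLAPTM4B cells (0.48 ± 0.049, adjusted p = 0.00011, limma) and in siControl cells (0.15 ± 0.041, adjusted p = 0.030).

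Epithelial markers fixed for the line were mixed. The keratin genes KRT8 and KRT18 had levels between 12.14 and 12.99 on the 12 arrays, while CDH1, which encodes E-cadherin, lay between 6.10 and 6.29, near the lower quartile of each array (6.14 to 6.19). Of the leukocyte and macrophage markers, PTPRC, MS4A1 and CD163 had means of 5.25, 5.37 and 5.79 over the 12 arrays, CD3E, ITGAM, CSF1R and CD14 of 6.74, 6.94, 7.14 and 7.42, TYROBP of 8.38 and CD68 of 10.29, on probe sets whose levels cannot be set against each other. Of 6 epithelial markers, serum withdrawal was called for EPCAM (higher) and KRT7 (lower) in cells of both siRNAs, and knockdown was called for KRT7 without serum (lower) and EPCAM with 10% FBS (higher). Of 9 leukocyte and macrophage markers it was called for CD68, itself a lysosomal membrane protein, and CD14, both lower, and of 6 fibroblast markers for LUM and PDGFRB, both lower and both also lower after knockdown in both media. The part of these marker genes in the member differences was not tested, and in bulk cultures fewer cells of a kind and less RNA per cell cannot be told apart.

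The palindrome bound by TFEB and its relatives was searched in the promoters, because many lysosomal genes are known to carry it. RefSeq promoter windows (GRCh38.p14, 250 bases before to 50 after a start site) were at hand for 38 of the 55 genes. The core E-box CACGTG, read on both strands, lay in 15 of 55 member windows (27.3%) and in 7.26% of all 35116 windows. The longer palindrome TCACGTGA, which contains it, lay in 9 member windows (16.4%) and in 0.980% of all windows, and belonged to 8 members: MCOLN1, GAA, LAMP1, CLN3, CTSA, ATP6V0D1, ATP6V1G1 and GALNS. Stretches of 30 bases around it are shown here with the palindrome in capitals, followed by 4 members discussed later that hold only the core, then in capitals (1 of 2 cores for ATP6V0B).
MCOLN1 (chr19:7522571-7522600, plus strand): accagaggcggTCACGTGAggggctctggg
MCOLN1 (chr19:7522598-7522627, plus strand): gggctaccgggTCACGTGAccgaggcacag
GAA (chr17:80101493-80101522, plus strand): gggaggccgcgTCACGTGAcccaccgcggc
GAA (chr17:80101538-80101567, plus strand): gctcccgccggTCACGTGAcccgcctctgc
LAMP1 (chr13:113297199-113297228, plus strand): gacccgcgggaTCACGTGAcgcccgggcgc
LAMP1 (chr13:113297226-113297255, plus strand): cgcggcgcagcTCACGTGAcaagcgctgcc
CLN3 (chr16:28492058-28492087, minus strand): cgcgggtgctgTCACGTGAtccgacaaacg
CTSA (chr20:45891298-45891327, plus strand): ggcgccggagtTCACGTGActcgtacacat
ATP6V0D1 (chr16:67481199-67481228, minus strand): cccccttatggTCACGTGAggcgcttgcgc
ATP6V1G1 (chr9:114587699-114587728, plus strand): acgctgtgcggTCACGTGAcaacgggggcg
GALNS (chr16:88857104-88857133, minus strand): caggcaccgcgTCACGTGAcccgccgctgg
NEU1 (chr6:31862930-31862959, minus strand): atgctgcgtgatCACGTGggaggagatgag
CTSD (chr11:1763957-1763986, minus strand): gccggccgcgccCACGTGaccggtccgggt
CD63 (chr12:55729172-55729201, minus strand): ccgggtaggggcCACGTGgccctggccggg
ATP6V0B (chr1:43974891-43974920, plus strand): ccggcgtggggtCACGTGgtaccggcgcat
A match is a description of these letters and not a binding site, and no binding was measured here.

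The first comparison asked how LAPTM4B knockdown altered these genes. Without serum, 1 of the 55 members was lower in siLAPTM4B cells and 0 were higher at an adjusted p under 0.05 in limma, where 1.74% and 0.591% of 19460 probe sets were. With 10% FBS, 2 members were lower and 0 higher, where 2.09% and 1.99% of the probe sets were. IDS, the iduronate sulfatase that starts the breakdown of heparan and dermatan sulfate, was lower in both media, and NEU1, the lysosomal sialidase, was lower with 10% FBS. All log2 fold changes over the 55 members lay between -0.29 and 0.13 without serum, with a median of -0.03 beside 0.01 for all probe sets. With 10% FBS they lay between -0.26 and 0.20, with a median of 0.01 beside 0.00.

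IDS had levels of 10.82, 10.78 and 10.77 in siLAPTM4B cells without serum, against 11.14, 11.04 and 11.05 in siControl cells without serum. With 10% FBS its levels were 10.99, 11.02 and 10.90 in siLAPTM4B cells, against 11.22, 11.19 and 11.22 in siControl cells. The groups did not overlap in either medium, siLAPTM4B cells being lower. IDS was 0.821-fold without serum (log2 fold change -0.29 ± 0.046, adjusted p = 0.019) and 0.848-fold with 10% FBS (-0.24 ± 0.049, adjusted p = 0.034). Its other probe set gave -0.24 (adjusted p = 0.026) and -0.23 (adjusted p = 0.036). IDS has a nearby pseudogene, so the share of each copy in the signal is uncertain.

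NEU1 had 10.72, 10.76 and 10.76 in siLAPTM4B cells without serum, against 11.01, 10.86 and 10.95 in siControl cells without serum. With 10% FBS it had 10.30, 10.31 and 10.46 in siLAPTM4B cells, against 10.64, 10.61 and 10.59 in siControl cells. The groups did not overlap in either medium, but the call was made only with 10% FBS (-0.26 ± 0.055, 0.835-fold, adjusted p = 0.037) and not without serum (-0.19 ± 0.050, adjusted p = 0.10). The difference between the media was not called (0.07 ± 0.073, adjusted p = 0.78). Its remaining probe sets, which held identical values, gave -0.21 with 10% FBS (adjusted p = 0.042).

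These 3 calls did not hold when 1 array was left out, and each was lost without any of 5 arrays. Over the alternatives the log2 fold changes kept their sign. They lay between -0.31 and -0.25 for IDS without serum, -0.26 and -0.20 for IDS with 10% FBS, and -0.31 and -0.23 for NEU1 with 10% FBS. The IDS call without serum was lost when any siControl array without serum, or siLAPTM4B replicate 2 or 3, was left out, with adjusted p up to 0.093 over its alternatives. The IDS call with 10% FBS was lost without any siControl array with 10% FBS or without siLAPTM4B replicate 1 or 3 (up to 0.12), and the NEU1 call without any such siControl array or without siLAPTM4B replicate 1 or 2 (up to 0.14).

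**Figure D1:**
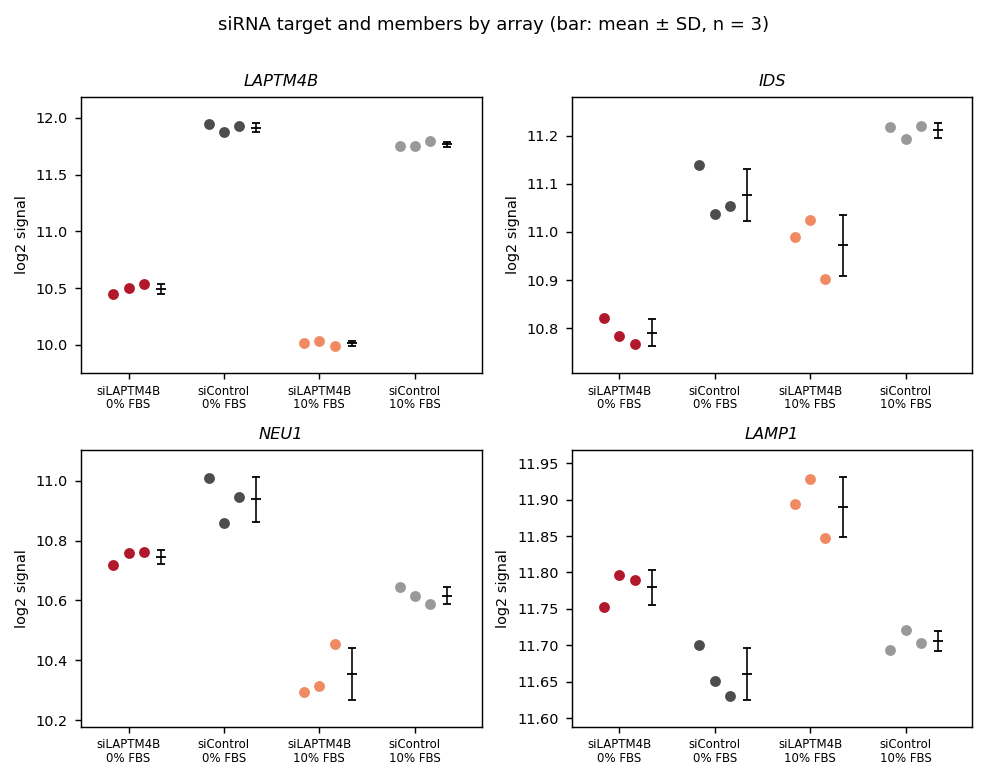
Level (log2 RMA signal, y axis, scaled to each gene) of LAPTM4B and of the members IDS, NEU1 and LAMP1 on each array, by group; points are arrays, bars are the mean ± SD of 3 arrays. LAPTM4B, IDS and NEU1 lay lower on all siLAPTM4B arrays than on all siControl arrays of the same medium, while LAMP1 lay higher.

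At an unadjusted p under 0.05, the called members included, 4 members were higher and 9 lower without serum, where 6.47% and 8.62% of probe sets were. With 10% FBS these were 3 higher and 9 lower, where 9.76% and 8.48% of probe sets were. Of the members, 6 were lower in both media at that level (ARSA, ATP6V0E1, CTSL, FUCA1, IDS and NEU1) and 1 was higher in both (LAMP1). The share of all probe sets at that level in the same direction in both media was not computed. LAMP1, the main glycoprotein of the lysosomal membrane, had 11.75, 11.80 and 11.79 in siLAPTM4B cells without serum, against 11.70, 11.65 and 11.63 in siControl cells without serum. With 10% FBS it had 11.89, 11.93 and 11.85 in siLAPTM4B cells, against 11.69, 11.72 and 11.70 in siControl cells. Its log2 fold changes were 0.12 ± 0.043 (adjusted p = 0.24) and 0.18 ± 0.045 (adjusted p = 0.062), and the groups did not overlap.

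The hydrolases, meaning the proteases, glycosidases, sulfatases and lipid hydrolases, were 31 of the 55 members. At that level without serum they held 1 of the 4 higher members and 7 of the 9 lower. With 10% FBS they held 2 of the 3 higher members and 8 of the 9 lower. Hydrolases were most of the list, and whether they were over-represented at that level was not tested. CTSL, a cysteine protease with broad activity, had 9.59, 9.77 and 9.76 in siLAPTM4B cells without serum, against 9.88, 9.91 and 9.98 in siControl cells without serum (-0.22, adjusted p = 0.12), and gave -0.16 with 10% FBS (0.19). ARSA, which removes sulfate from sulfatide, had 8.63, 8.62 and 8.65 in siLAPTM4B cells without serum, against 8.75, 8.88 and 8.82 in siControl cells without serum (-0.19, adjusted p = 0.097), and gave -0.18 with 10% FBS (0.096). FUCA1, the lysosomal fucosidase, gave -0.17 without serum (adjusted p = 0.13) and -0.19 with 10% FBS (0.089). MANBA, which cleaves beta-linked mannose from glycans, had 7.87, 7.93 and 8.06 in siLAPTM4B cells without serum, against 8.20, 8.22 and 8.22 in siControl cells without serum. Its log2 fold change there was -0.26 ± 0.056 (adjusted p = 0.058), beside -0.03 with 10% FBS.

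Some members reached that level in 1 medium only. CTSF, a cysteine protease, gave -0.19 with 10% FBS (adjusted p = 0.080) and -0.05 without serum. LIPA, the acid lipase that frees cholesterol from its esters, gave 0.20 with 10% FBS (0.12) and 0.01 without serum. TPP1, a tripeptidyl peptidase, gave 0.18 with 10% FBS (0.14) and 0.12 without serum. GLA, the alpha-galactosidase, gave -0.18 without serum (0.19) and 0.03 with 10% FBS. None of these passed the adjusted threshold.

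The most studied proteases differed little between siRNAs. CTSD, the aspartic protease of the lysosome, had 12.31, 12.33 and 12.30 in siLAPTM4B cells without serum, against 12.32, 12.33 and 12.35 in siControl cells without serum, and the interval of its log2 fold change was -0.11 to 0.07. CTSB, a cysteine protease, had an interval of -0.13 to 0.08 in that medium, and -0.03 to 0.18 with 10% FBS. With 10% FBS the CTSB groups did not overlap, siLAPTM4B cells being higher, but it was not called (adjusted p = 0.46, limma). PSAP, the precursor of the saposins that present lipids to hydrolases, had intervals of -0.13 to 0.07 without serum and -0.10 to 0.11 with 10% FBS. NPC2, which binds cholesterol in the lumen, gave -0.07 without serum and -0.09 with 10% FBS. Its groups did not overlap in either medium, siLAPTM4B cells being lower, but it was not called.

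Among the other membrane proteins, MCOLN1, a calcium channel of the lysosome, had 10.31, 10.32 and 10.33 in siLAPTM4B cells without serum, against 10.19, 10.24 and 10.21 in siControl cells without serum (0.11 ± 0.041, adjusted p = 0.26). With 10% FBS its log2 fold change was 0.09 (0.48). Of the 13 V-ATPase subunits, limma called 0 in either medium. At an unadjusted p under 0.05, 2 were lower without serum and 1 lower with 10% FBS, where 8.62% and 8.48% of probe sets were. ATP6V0E1, a small V0 subunit, came closest, with 11.75, 11.77 and 11.78 in siLAPTM4B cells without serum, against 11.94, 11.94 and 11.97 in siControl cells without serum (-0.18 ± 0.040, adjusted p = 0.058). With 10% FBS it had 11.68, 11.80 and 11.77 in siLAPTM4B cells, against 11.90, 11.93 and 11.92 in siControl cells (-0.17 ± 0.048, adjusted p = 0.099). The groups did not overlap in either medium.

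ATP6V0D1, the V0 subunit at the base of the stalk, gave 0.06 without serum and -0.04 with 10% FBS, and ATP6V1A, the catalytic subunit, -0.03 and 0.11. ATP6V1D, of the central stalk, gave -0.13 without serum (adjusted p = 0.27). TFEB had 7.99, 7.96 and 8.07 in siLAPTM4B cells without serum, against 7.91, 7.80 and 7.92 in siControl cells without serum (0.13 ± 0.052, adjusted p = 0.28), and a log2 fold change of 0.00 with 10% FBS. The 8 members with the longer palindrome had a median log2 fold change of 0.04 without serum and 0.06 with 10% FBS. These lay beside 0.01 and 0.00 for all probe sets, and 0 of the 8 were called. The 14 members with the core, these 8 included, had medians of 0.00 and -0.01, and 1 of them (NEU1) was called lower with 10% FBS. The 24 members with a window and no core had medians of -0.04 without serum and -0.0002 with 10% FBS. The 17 members with no window at hand had -0.03 and 0.05. Whether the medians depend on the motif was not tested.

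**Figure D2:**
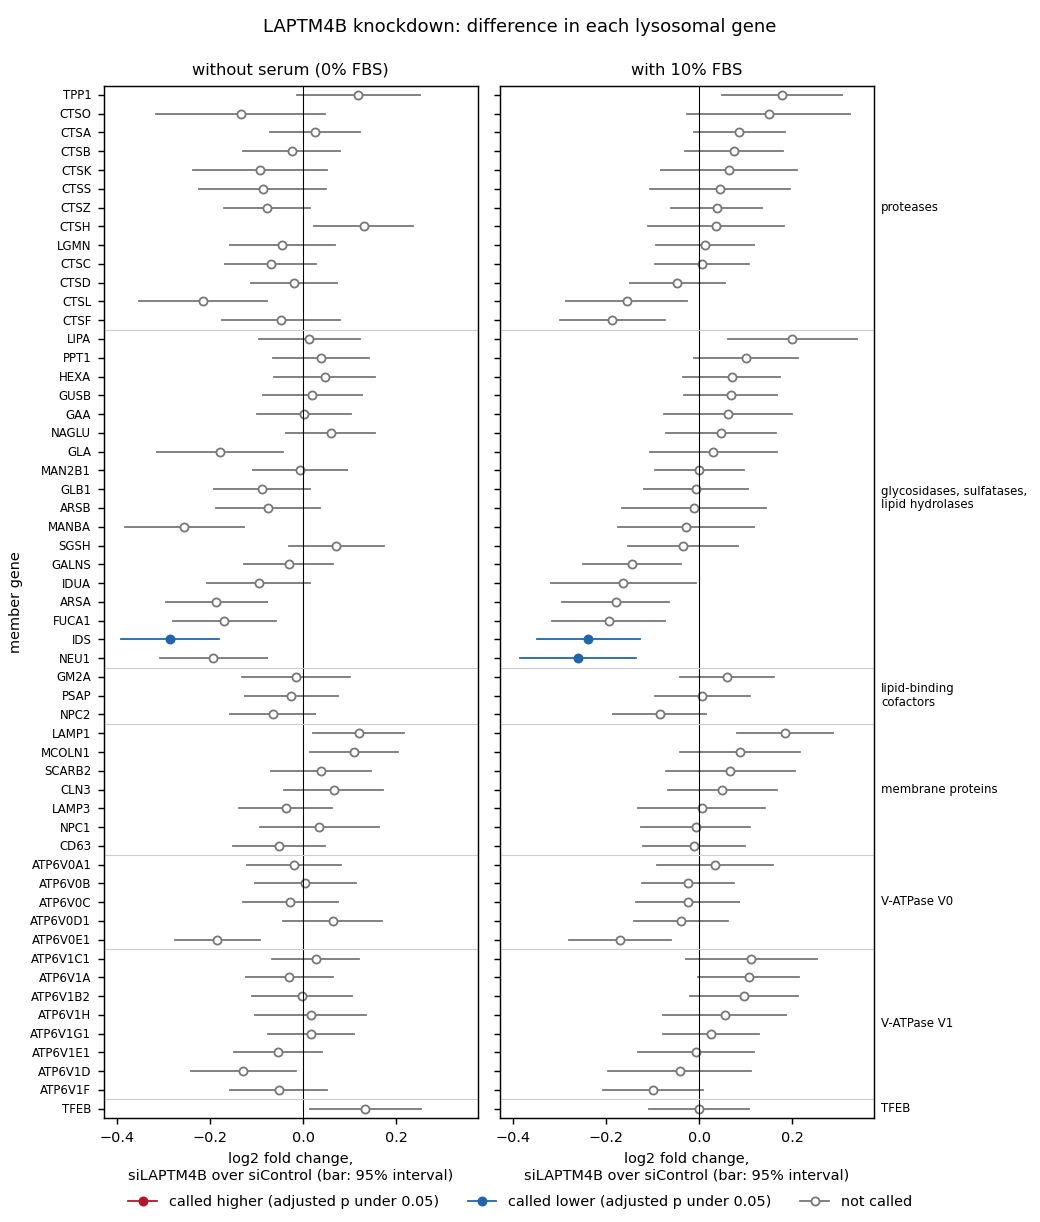
Log2 fold change, siLAPTM4B over siControl, of each member without serum (left) and with 10% FBS (right), grouped by class; points are limma estimates from 3 arrays against 3, bars are 95% intervals, and filled points passed an adjusted p of 0.05. The filled points are IDS on the left and IDS and NEU1 on the right, both lower.

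The second comparison asked how serum withdrawal altered the same genes within each siRNA. It called many more members, in both directions. In siLAPTM4B cells 9 members were higher and 13 lower without serum than with 10% FBS, where 9.74% and 11.0% of probe sets were. In siControl cells 16 were higher and 11 lower, where 13.2% and 12.9% of probe sets were. The log2 fold changes lay between -0.50 and 0.73 in siLAPTM4B cells and between -0.56 and 0.68 in siControl cells, with medians of -0.01 and 0.03 beside -0.01 and -0.02 for all probe sets. In siControl cells every class but the membrane proteins and TFEB held both members called higher and members called lower. Of the members, 49 lay above the array median on all 12 arrays, while the probe sets set beside them were not filtered for brightness. In this and the other comparisons, the share called among probe sets as bright as the members was not computed.

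Across both siRNAs 16 members were called in the same direction, which is 72.7% of those called in siLAPTM4B cells and 59.3% of those called in siControl cells, and 0 were called in opposite directions. The 8 called higher in both were NPC1, CD63, NEU1, MANBA, MAN2B1, ARSA, IDUA and ATP6V0B. The 8 called lower in both were CTSH, GM2A, FUCA1, CTSL, CTSD, CTSA, CTSB and ATP6V0C. The sign was shared by 48 of the 55 members, and across the members the log2 fold changes of the 2 siRNAs correlated with r = 0.92. No array entered both comparisons, but genes are not independent replicates. These figures were not computed over all probe sets, so whether such likeness is particular to the members was not tested.

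More proteases were called lower than higher without serum. In siLAPTM4B cells 6 of 13 were called lower (CTSA, CTSB, CTSC, CTSD, CTSH and CTSL) and 0 higher, where 11.0% and 9.74% of probe sets were. In siControl cells 5 were called lower (the same without CTSC) and 2 higher (CTSS and CTSZ), where 12.9% and 13.2% of probe sets were, and the median over the class was -0.02. CTSH, an aminopeptidase, had 7.61, 7.61 and 7.63 in siLAPTM4B cells without serum, against 8.06, 8.17 and 8.02 with 10% FBS. The siControl cells had 7.53, 7.52 and 7.42 without serum, against 8.06, 7.94 and 8.13 with 10% FBS. All arrays without serum lay below all arrays with serum, by -0.46 ± 0.055 (adjusted p = 0.00028) and -0.56 ± 0.058 (adjusted p = 0.00024) on the log2 scale.

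CTSD had 12.31, 12.33 and 12.30 in siLAPTM4B cells without serum, against 12.57, 12.50 and 12.53 with 10% FBS (-0.22 ± 0.048, adjusted p = 0.0099). Under control siRNA CTSD had 12.32, 12.33 and 12.35 without serum, against 12.59, 12.59 and 12.56 with 10% FBS (-0.25 ± 0.038, adjusted p = 0.0019). CTSB had 10.29, 10.23 and 10.34 in siLAPTM4B cells without serum, against 10.54, 10.58 and 10.54 with 10% FBS (-0.27, adjusted p = 0.0046). In siControl cells CTSB gave -0.17 (0.017), a call lost without siControl replicate 2 or 3 without serum or replicate 3 with 10% FBS (up to 0.058). The groups of CTSD and of CTSB did not overlap.

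CTSA, a carboxypeptidase that also protects NEU1 and the beta-galactosidase GLB1 in a complex, gave -0.27 in siLAPTM4B cells (adjusted p = 0.0032) and -0.21 in siControl cells (0.0050). CTSL gave -0.31 (0.012) and -0.25 (0.0046). CTSC, a dipeptidyl peptidase, was called in siLAPTM4B cells (-0.20, adjusted p = 0.014) and missed the threshold in siControl cells (-0.13, 0.055). The interaction term for CTSC was not called.

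The rises of CTSS and CTSZ in siControl cells were small. CTSZ, a carboxypeptidase, had 11.46, 11.43 and 11.46 in siControl cells without serum, against 11.32, 11.32 and 11.34 with 10% FBS (0.13 ± 0.038, adjusted p = 0.040), and gave 0.01 in siLAPTM4B cells. CTSS, a protease of antigen-presenting cells, gave 0.21 (0.028) and was the only member below the lower quartile of every one of the 12 arrays. The CTSZ call was lost with the replicate numbers as a block (adjusted p = 0.052) and when any of its 6 arrays was left out (up to 0.13), and the CTSS call when any of 5 was (up to 0.095). CTSO, a cysteine protease, had the widest spread of the class, with 7.14, 6.99 and 7.32 in siLAPTM4B cells without serum, against 7.25, 7.45 and 7.39 with 10% FBS (-0.21 ± 0.086, adjusted p = 0.12).

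**Figure D3:**
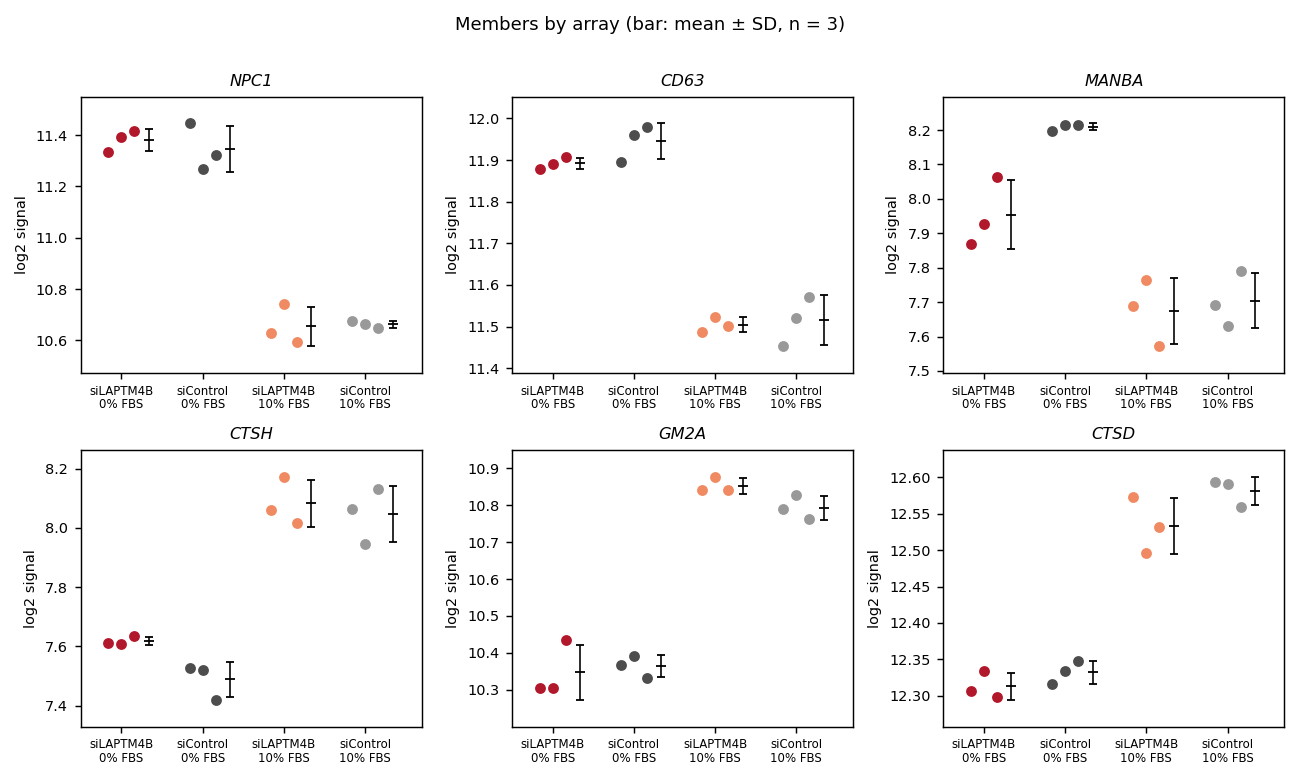
Level (log2 RMA signal, y axis, scaled to each gene) of 6 members on each array, by group; points are arrays and bars are the mean ± SD of 3 arrays. NPC1, CD63 and MANBA lay higher, and CTSH, GM2A and CTSD lower, on all arrays without serum than on all arrays with 10% FBS of the same siRNA.

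The glycosidases, sulfatases and lipid hydrolases went both ways. In siLAPTM4B cells 5 of 18 were called higher (ARSA, IDUA, MAN2B1, MANBA and NEU1) and 3 lower (FUCA1, GLB1 and IDS). These were 27.8% and 16.7% of the class, where 9.74% and 11.0% of probe sets were called. In siControl cells 8 were called higher (the same 5 with GLA, GUSB and LIPA) and 3 lower (FUCA1, GALNS and SGSH). That was 44.4% and 16.7% of the class, where 13.2% and 12.9% of probe sets were called. MANBA had 7.87, 7.93 and 8.06 in siLAPTM4B cells without serum, against 7.69, 7.76 and 7.57 with 10% FBS. The siControl cells had 8.20, 8.22 and 8.22 without serum, against 7.69, 7.63 and 7.79 with 10% FBS. The log2 fold changes were 0.28 ± 0.069 (adjusted p = 0.019) and 0.51 ± 0.049 (adjusted p = 0.00015), and neither pair of groups overlapped. The call in siLAPTM4B cells was lost without replicate 3 of either medium (adjusted p up to 0.11).

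NEU1 rose without serum in cells of both siRNAs, by 0.39 ± 0.057 in siLAPTM4B cells (1.31-fold, adjusted p = 0.0010) and by 0.32 ± 0.049 in siControl cells (1.25-fold, adjusted p = 0.0018). Its levels without serum, 10.72 to 10.76 in siLAPTM4B cells and 10.86 to 11.01 in siControl cells, all lay above those with 10% FBS, 10.30 to 10.46 and 10.59 to 10.64. MAN2B1, the lysosomal alpha-mannosidase, had 9.90, 9.99 and 9.98 in siLAPTM4B cells without serum, against 9.72, 9.72 and 9.75 with 10% FBS (0.23, adjusted p = 0.0099). In siControl cells it gave 0.23 as well (0.0024).

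GLA had 10.11, 9.92 and 10.02 in siControl cells without serum, against 9.61, 9.61 and 9.63 with 10% FBS (0.40 ± 0.053, adjusted p = 0.00090). In siLAPTM4B cells it had 9.83, 9.78 and 9.90 without serum, against 9.53, 9.76 and 9.65 with 10% FBS, and missed the threshold (0.19 ± 0.066, adjusted p = 0.074). ARSA gave 0.21 (adjusted p = 0.018) in siLAPTM4B cells and 0.22 (0.011) in siControl cells. IDUA, the iduronidase that acts after IDS, gave 0.27 (0.018) and 0.21 (0.016). GUSB, the beta-glucuronidase, gave 0.14 (0.10) and 0.18 (0.0084), and LIPA -0.01 (0.95) and 0.18 (0.025).

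FUCA1 fell without serum in both. It had 9.02, 9.01 and 9.11 in siLAPTM4B cells without serum, against 9.34, 9.32 and 9.44 with 10% FBS (-0.32 ± 0.055, adjusted p = 0.0028). Under control siRNA FUCA1 had 9.24, 9.16 and 9.24 without serum, against 9.55, 9.51 and 9.62 with 10% FBS (-0.34 ± 0.047, adjusted p = 0.0010). The groups did not overlap. GLB1 gave -0.20 (adjusted p = 0.024) in siLAPTM4B cells and -0.11 (0.090) in siControl cells. SGSH, the heparan sulfate sulfamidase, gave -0.10 and -0.20 (0.012), and GALNS, a sulfatase for keratan sulfate, -0.03 and -0.14 (0.036).

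IDS gave -0.18 in siLAPTM4B cells (adjusted p = 0.036) and -0.13 in siControl cells (0.053), but its other probe set gave -0.05 (0.58) and -0.04 (0.56). Among the calls of this class in siLAPTM4B cells, those of ARSA, GLB1, IDS, IDUA and MAN2B1 were lost when 1 array was left out. MAN2B1 was lost only without siLAPTM4B replicate 2 without serum (adjusted p = 0.054), ARSA and IDUA with any of 3 arrays (up to 0.074 and 0.11), and GLB1 and IDS with any of 5 (up to 0.073 and 0.12). In siControl cells LIPA (4 arrays, up to 0.097), GALNS (6 arrays, up to 0.13), SGSH (without siControl replicate 2 of either medium, up to 0.056) and IDUA (without siControl replicate 2 with 10% FBS, 0.054) were lost in this way.

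The cofactors split. GM2A, which lifts the GM2 ganglioside for its hydrolase, had 10.30, 10.30 and 10.43 in siLAPTM4B cells without serum, against 10.84, 10.88 and 10.84 with 10% FBS. Under control siRNA GM2A had 10.37, 10.39 and 10.33 without serum, against 10.79, 10.83 and 10.76 with 10% FBS. The fall was -0.50 ± 0.054 (0.705-fold, adjusted p = 0.00015) and -0.43 ± 0.041 (0.743-fold, adjusted p = 0.00014), with no overlap. HEXA, a hexosaminidase subunit, gave 0.07 and 0.09 and was not called. The hydrolases not named so far, CTSK, LGMN, GAA, PPT1, NAGLU and ARSB, were called in none of the 5 comparisons, and their log2 fold changes for serum withdrawal lay between -0.17 and 0.10. PSAP gave 0.12 in siLAPTM4B cells (0.10) and 0.15 in siControl cells (0.030), a call lost without any of 5 arrays (up to 0.12), and NPC2 gave 0.04 and 0.02.

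The membrane proteins held the largest rise among the members. NPC1, the cholesterol exporter, had 11.33, 11.39 and 11.42 in siLAPTM4B cells without serum, against 10.63, 10.74 and 10.59 with 10% FBS (0.73 ± 0.056, 1.65-fold, adjusted p = 1.8e-05). Under control siRNA NPC1 had 11.45, 11.27 and 11.32 without serum, against 10.67, 10.67 and 10.65 with 10% FBS (0.68 ± 0.052, 1.61-fold, adjusted p = 4.05e-05). CD63, a tetraspanin of late endosomes, had 11.88, 11.89 and 11.91 in siLAPTM4B cells without serum, against 11.49, 11.52 and 11.50 with 10% FBS (0.39 ± 0.046, adjusted p = 0.00029). Under control siRNA CD63 had 11.90, 11.96 and 11.98 without serum, against 11.45, 11.52 and 11.57 with 10% FBS (0.43 ± 0.047, adjusted p = 0.00031). Neither gene's groups overlapped.

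SCARB2, a membrane receptor of lysosomes, gave 0.16 in siLAPTM4B cells (adjusted p = 0.073) and 0.19 in siControl cells (0.034), a call lost without any of 4 arrays (up to 0.12). LAMP1 gave -0.11 (0.16) and -0.05 (0.47). MCOLN1 gave 0.06 and 0.04, CLN3 -0.09 and -0.10, and LAMP3, a dim member with a mean of 6.92 over the 12 arrays, -0.08 and -0.03.

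The V-ATPase subunits did not move as 1 group. In siLAPTM4B cells 1 of 13 was called higher (ATP6V0B) and 3 lower (ATP6V0C, ATP6V1A and ATP6V1C1), where 9.74% and 11.0% of probe sets were. In siControl cells 2 were called higher (ATP6V0B and ATP6V1D) and 2 lower (ATP6V0C and ATP6V1F), where 13.2% and 12.9% of probe sets were. ATP6V0B, a proteolipid of the V0 ring, had 10.12, 10.09 and 10.07 in siLAPTM4B cells without serum, against 9.83, 9.86 and 9.83 with 10% FBS (0.25 ± 0.047, adjusted p = 0.0041). In siControl cells it had 10.03, 10.09 and 10.15 without serum, against 9.88, 9.84 and 9.87 with 10% FBS (0.23 ± 0.046, adjusted p = 0.0075). ATP6V0C, the main proteolipid of the same ring, went the other way. It had 11.69, 11.68 and 11.65 in siLAPTM4B cells without serum, against 11.93, 11.85 and 11.81 with 10% FBS (-0.18 ± 0.051, adjusted p = 0.031), and gave -0.18 in siControl cells too (0.014).

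ATP6V1A had 10.77, 10.76 and 10.79 in siLAPTM4B cells without serum, against 11.00, 11.08 and 11.00 with 10% FBS (-0.25 ± 0.049, adjusted p = 0.0053), and gave -0.11 in siControl cells (0.076). ATP6V1D had 10.76, 10.76 and 10.74 in siControl cells without serum, against 10.43, 10.47 and 10.57 with 10% FBS (0.26 ± 0.048, adjusted p = 0.0045), and gave 0.18 in siLAPTM4B cells (0.11). ATP6V1C1, a stalk subunit, gave -0.19 in siLAPTM4B cells (0.049) and -0.10 in siControl cells. ATP6V1F, a small stalk subunit, gave -0.11 in siLAPTM4B cells and -0.16 in siControl cells (0.029). The calls of ATP6V0C, ATP6V1C1 and ATP6V1F were lost when single arrays were left out, with adjusted p up to 0.098, 0.15 and 0.11. ATP6V0D1 gave 0.06 and -0.04, and the remaining V-ATPase genes lay between -0.14 and 0.10.

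TFEB had 7.99, 7.96 and 8.07 in siLAPTM4B cells without serum, against 7.82, 7.80 and 7.82 with 10% FBS (0.19 ± 0.050, adjusted p = 0.023). In siControl cells it had 7.91, 7.80 and 7.92 without serum, against 7.88, 7.79 and 7.78 with 10% FBS (0.06 ± 0.050, adjusted p = 0.45), and those groups overlapped. The call was lost without any of 4 arrays (adjusted p up to 0.095), and the difference between the siRNAs was not called (0.13 ± 0.067, adjusted p = 0.50). Of the 8 members with the longer palindrome, 0 were called higher and 1 lower (CTSA) in siLAPTM4B cells, and 0 higher and 2 lower (CTSA and GALNS) in siControl cells. Of the 14 with the core, 3 were called higher in each siRNA (NEU1, CD63 and ATP6V0B), and 2 (CTSA and CTSD) and 3 (these with GALNS) were called lower. Of the 24 with a window and no core, 4 were called higher and 8 lower in siLAPTM4B cells, and 9 higher and 6 lower in siControl cells. Of the 17 with no window at hand, these were 2 and 3 in siLAPTM4B cells, and 4 and 2 in siControl cells. Of all probe sets, 9.74% were called higher and 11.0% lower in siLAPTM4B cells, and 13.2% and 12.9% in siControl cells.

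**Figure D4:**
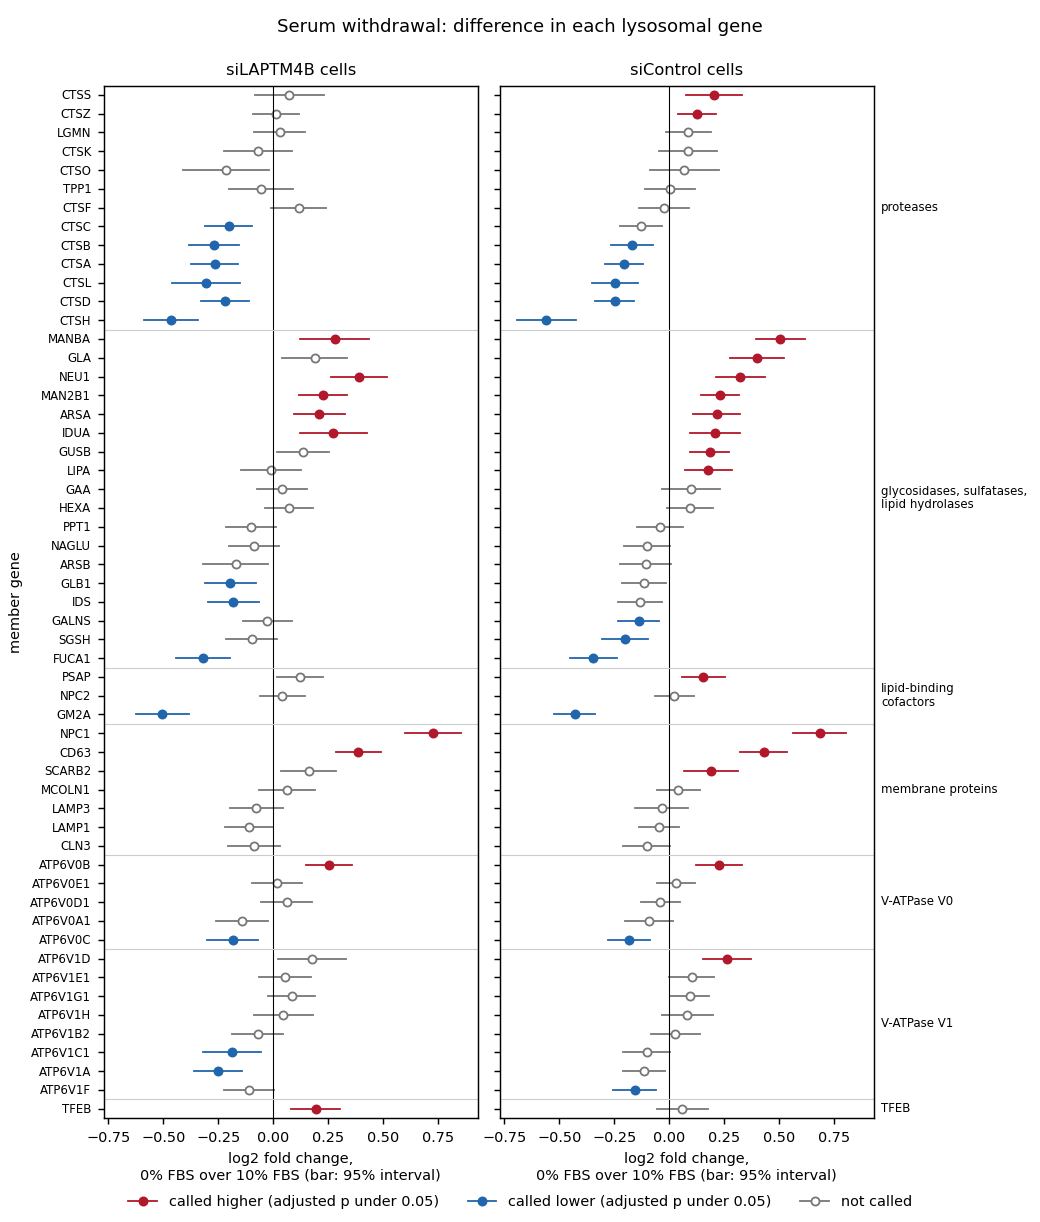
Log2 fold change, 0% FBS over 10% FBS, of each member in siLAPTM4B cells (left) and siControl cells (right), grouped by class; points are limma estimates from 3 arrays against 3, bars are 95% intervals, and filled points passed an adjusted p of 0.05. NPC1 was highest in both panels, and GM2A (left) and CTSH (right) lowest.

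The third comparison asked whether knockdown acted on the members differently without serum than with it, the same question as whether serum withdrawal acted differently under each siRNA. At an adjusted p under 0.05 in limma, 0 of the 55 members were called, where 0.262% of probe sets were in either direction. At an unadjusted p under 0.05, 0 members were positive and 6 negative (CTSO, CTSZ, GLA, LIPA, MANBA and ATP6V1A), where 4.47% and 6.49% of probe sets were. This count of 6 was 0 without siControl or siLAPTM4B replicate 2 with 10% FBS, 1 without siControl replicate 1 with 10% FBS, 8 without siLAPTM4B replicate 1 with 10% FBS, and 2 to 5 without any other array. The median of the difference, without serum minus with 10% FBS, was -0.04 beside 0.00 for all probe sets, and 38 of 55 members were below 0. MANBA gave -0.23 ± 0.088 (95% interval -0.42 to -0.04, adjusted p = 0.37), GLA -0.21 ± 0.086 (-0.40 to -0.02, 0.40) and LIPA -0.19 ± 0.077 (-0.35 to -0.02, 0.40). CTSO gave -0.28 ± 0.12 (-0.54 to -0.02, 0.41). Calls made for 1 siRNA and not for the other were therefore not shown to differ. LAPTM4B itself was lowered less without serum than with 10% FBS (interaction term 0.33 ± 0.056, adjusted p = 0.035, limma). Its part in the member differences was not tested.

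Other genes of the lysosomal pathway gave a background for the members. Of 86 listed genes, 76 had a probe set annotated to them alone (other enzymes, other membrane proteins, other V-ATPase genes, sorting factors, and TFEB relatives with the mTORC1 machinery). Knockdown called 0 of the 76 higher and 1 lower without serum, where 0.591% and 1.74% of probe sets were. With 10% FBS, 2 were higher and 2 lower, where 1.99% and 2.09% of probe sets were. PLA2G15, the lysosomal phospholipase, had 9.20, 9.28 and 9.22 in siLAPTM4B cells without serum, against 9.53, 9.52 and 9.58 in siControl cells without serum (-0.31 ± 0.044, adjusted p = 0.012). With 10% FBS it gave -0.29 ± 0.048 (0.015). SMPD1, the acid sphingomyelinase, was lower with 10% FBS (-0.24, adjusted p = 0.032), and CTBS, which trims chitobiose, and SIAE, a sialic acid esterase, were higher (0.25 and 0.22, adjusted p = 0.036 and 0.038).

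Serum withdrawal called 11 of these 76 genes higher (14.5%) and 13 lower (17.1%) in siLAPTM4B cells. The shares there were 16.4% and 23.6% of the members, and 9.74% and 11.0% of probe sets. In siControl cells 16 of the 76 were higher (21.1%) and 11 lower (14.5%), beside 29.1% and 20% of the members, and 13.2% and 12.9% of probe sets. Most members were bright and the probe sets include dim ones, so these shares are not matched for brightness. RRAGD, a Rag GTPase that carries mTORC1 to the lysosome, had 9.56, 9.68 and 9.79 in siLAPTM4B cells without serum, against 8.83, 8.92 and 8.84 with 10% FBS (0.82 ± 0.065, adjusted p = 2.2e-05). In siControl cells it gave 0.89 ± 0.062 (adjusted p = 2.6e-05). MITF, a relative of TFEB, went down (-0.60, adjusted p = 0.00028, and -0.57, adjusted p = 3.8e-05). Of the sorting factors, IGF2R, the large mannose 6-phosphate receptor, rose (0.28 and 0.26) and NAGPA, which uncovers the mannose 6-phosphate tag, fell (-0.36 and -0.33). Other rises in both siRNAs were those of CPVL (0.53 and 0.52), HGSNAT (0.32 and 0.43), SLC17A5 (0.26 and 0.45) and ATP6V0A2 (0.24 and 0.36), and other falls those of SIDT2 (-0.48 and -0.57), TPCN1 (-0.35 and -0.39), SIAE (-0.39 and -0.17) and SMPD1 (-0.35 and -0.38).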

How the data were processed

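Total RNA of 12 Calu-6 cultures was hybridised to Affymetrix Human Gene 1.0 ST arrays. Per the labels and the study's methods, the authors normalised the deposited log2 values by RMA in BRB-ArrayTools; the build and annotation version are not given in the sources used here. Probe sets were named from the platform annotation: of 33252 probe sets, 19460 had exactly 1 gene symbol, 1754 several and 12038 none. The members, gene lists and promoter motifs were chosen with earlier results of these data known.

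Each comparison was fitted on its 6 arrays, and the interaction on all 12, with limma 3.58.1 in R 4.3.3 (lmFit and eBayes), with no filter on dim probe sets and Benjamini-Hochberg adjustment over the 19460 probe sets. A call is an adjusted p under 0.05. Errors are standard errors of the fit, and tests were two-sided. The script was tested on simulated data with known changes. An exact permutation test of 3 arrays against 3 cannot go below p = 0.1, so whether groups overlapped is stated instead. The genes named are LAPTM4B, every member called in a comparison, the 2 members of each class with the largest change in each comparison, LAMP1, CTSD, CTSB, PSAP, ATP6V1A, ATP6V0D1 and TFEB, and up to 3 called genes in each direction of the other lists; CLN3, LAMP3, HEXA and NPC2, and some genes just past these limits, were added to complete a class. Some genes of the other lists are not reported here.

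Replicates are labelled biological, and nothing gives a scan or batch. Same-numbered siControl arrays of the 2 media deviated together (r = 0.37, 0.13 and 0.20), so numbers may pair that comparison. The siLAPTM4B arrays without serum and siControl arrays with 10% FBS, which were not compared, did so too (r = 0.48, 0.18 and 0.35). The main fits took no account of the numbers. For serum withdrawal in siControl cells the block gave 26 called members in place of 27. The alternatives were all probe sets as the background, dim probe sets left out, an intensity trend with a robust prior, a replicate block, centring on array medians, the mean of a gene's probe sets, 1 fit over 12 arrays, the methods' t-test (Student's t-test, which the study names for its experiments in general) and leaving out each array. Promoters are RefSeq windows of GRCh38.p14, searched for exact matches.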

Additional observations from a re-analysis of the deposited data

How the results depend on the processing

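The numbers of members called for knockdown moved with the processing, without a change of direction for IDS or NEU1. For knockdown without serum (1 member), all probe sets as the background gave 0, dim probe sets left out 5, an intensity trend with a robust prior 7, the replicate block 2, 1 fit over the 12 arrays 4 and the methods' t-test 0. For knockdown with 10% FBS (2 members), the same settings gave 0, 7, 7, 1, 9 and 0, and centring on array medians gave 1. Leaving out 1 array gave 0 to 1 for either. Among the added calls were ATP6V0E1 and LAMP1 in both media. For serum withdrawal in siLAPTM4B cells (22 members), leaving out 1 array gave 15 to 18, and in siControl cells (27 members) 17 to 22, the lowest without siControl replicate 2 with 10% FBS. Of these calls 12 and 16 held under every alternative, and none changed sign. The interaction called 0 members throughout. The replicate block gave 22 and 26 members for serum withdrawal in siLAPTM4B and siControl cells. In the other comparisons of 2 groups at least 1 same-numbered pair correlated below 0.1 (r between -0.17 and 0.39), and 3 or 4 of 6 arrays correlated best with their own number. CTSS lay below the lower quartile of every array, which limits its log2 fold change.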
